A study of Mus musculus with 4 samples.

Results

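Red cells carry oxygen on haemoglobin, whose alpha chain is encoded by Hba-a1. Their enzyme bisphosphoglycerate mutase, encoded by Bpgm, makes the small molecule that loosens oxygen from haemoglobin, and the cytosolic carbonic anhydrases Car1 and Car2 interconvert carbon dioxide and bicarbonate. Young red cells still hold such transcripts, so lung RNA carries them along with the blood in its vessels. Car2 is also made in other cell types, among them osteoclasts and acid- or bicarbonate-secreting epithelia.

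All probes with 1 of these 4 gene symbols were taken, 4 of the 9802 genes named on the arrays, which gave 12 of 20205 probes: 6 for Hba-a1, 2 for Bpgm, 1 for Car1 and 3 for Car2. They are lettered here in the order of their probe numbers. A total of 11 had a value on all 4 arrays and entered the tests. Probe B of Bpgm lacked a value on array 1 of particle-free air and is described without a test.

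The study used whole lung of BALB/cJ mice. Challenged mice, sensitized to and challenged with ovalbumin, a model allergen from egg white, had breathed either UCP-containing air (the labels do not spell UCP out) or particle-free air. Each of 4 dual-colour arrays, 2 per air, set challenged lung RNA against pooled RNA of 6 controls that were not sensitized and had breathed that same air. Array 1 of each air carried the challenged lung in Cy5, and array 2 carried it in Cy3. Sensitization and challenge are not separated by this design, and the age of the mice is not given here. Whether lungs were flushed of blood is likewise not given in the sources used, nor whether the arrays of an air held separate animals. The p-values thus cover array-to-array spread alone, and part of it may be technical.

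Values below are log2 ratios with challenged lung on top and the control pool below. The 4 arrays ran the same way, but the overall sign is likely only: it rests on the usual order of the dyes and on Chil3, a chitinase-like gene known for its high level in allergic lungs of mice, at 5.83 and 5.72 on the UCP arrays and 5.45 and 5.32 on the particle-free arrays. With the other sign every direction below turns. The arrays held 19832 and 19546 values in UCP air and 19439 and 19349 in particle-free air, with medians between -0.07 and 0.02, and their number limits the precision of every value. Pairs of arrays correlated weakly over all probes (Pearson's r between 0.06 and 0.14, Spearman's rho between 0.12 and 0.30). A ratio gives no level, so the presence of lung marker transcripts could not be checked. In bulk lung, fewer cells of a type and less RNA per cell cannot be told apart.

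To show the DNA upstream of the red cell genes, the 250 bases before the start of Hba-a1, of Bpgm and of Alas2, the first enzyme of erythroid heme synthesis, are printed from RefSeq (GRCm38.p6). Of the 4 genes, Hba-a1 and Bpgm matched this promoter table, and Car1 and Car2 are named only. Capitals mark GATAA, the core bound by GATA factors, CACCC, the core bound by erythroid Krüppel-like factors, and CCAAT, each searched on both strands, with no overlaps among the matches.
Hba-a1, chr11:32283422-32283671, plus strand: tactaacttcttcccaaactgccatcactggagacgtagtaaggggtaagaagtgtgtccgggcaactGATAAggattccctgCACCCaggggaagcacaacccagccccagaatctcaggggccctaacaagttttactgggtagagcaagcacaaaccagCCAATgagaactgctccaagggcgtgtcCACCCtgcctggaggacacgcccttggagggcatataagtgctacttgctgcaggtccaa
Alas2, chrX:150547167-150547416, plus strand: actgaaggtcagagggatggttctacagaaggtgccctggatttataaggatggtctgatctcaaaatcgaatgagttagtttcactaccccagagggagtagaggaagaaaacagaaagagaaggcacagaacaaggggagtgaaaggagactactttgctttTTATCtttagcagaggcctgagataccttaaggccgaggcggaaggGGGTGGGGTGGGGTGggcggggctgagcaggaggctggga
Bpgm, chr6:34476106-34476355, plus strand: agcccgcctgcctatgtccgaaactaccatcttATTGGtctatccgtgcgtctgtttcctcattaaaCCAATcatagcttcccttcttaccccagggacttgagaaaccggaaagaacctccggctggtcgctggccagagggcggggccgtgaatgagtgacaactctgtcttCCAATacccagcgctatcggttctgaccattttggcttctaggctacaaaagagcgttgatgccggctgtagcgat
The Hba-a1 window held 1 GATAA, 2 CACCC and 1 CCAAT, the Alas2 window 1 GATAA and 3 CACCC, and the Bpgm window 3 CCAAT and neither of the other motifs. Over all 32851 promoter windows of this length, 22.6% held GATAA, 52.0% CACCC and 33.8% CCAAT, so these matches are a description of the letters and not of binding. The 300-base windows of Hba-a1 and its duplicate Hba-a2, both on chromosome 11, shared a run of 297 identical bases. The first 250 bases of each window lie before the gene start, so the run does not show how alike the transcripts are. Hba-a2 has no probe of its own here, and probes named Hba-a1 may not tell the pair apart, which was not tested.

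The Hba-a1 probes lay on the low side of the control pool, more so in particle-free air than in UCP air, but no probe passed the test. Averaged over its 6 probes, Hba-a1 lay at -0.62 and -0.06 on the UCP arrays and at -0.73 and -0.88 on the particle-free arrays. Array 2 of UCP air thus stood near 0, and the other 3 arrays were close to each other. In particle-free air the gene averaged -0.80 ± 0.11, which is 1.74-fold lower than the pool, and in UCP air -0.34 ± 0.40, or 1.27-fold lower (SD, n = 2 each). Over the 4 arrays the mean was -0.57 ± 0.36 (SD, n = 4), with 4 of 4 arrays below 0 (limma unadjusted p = 0.0206, adjusted p = 0.242, 95% interval -1.01 to -0.14).

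By probe, Hba-a1 A gave -0.50 and -0.06 in UCP air and -0.65 and -1.03 in particle-free air. Hba-a1 B gave -0.55 and -0.10 in UCP air and -0.73 and -1.06 in particle-free air. Hba-a1 D gave -0.38 and -0.03 in UCP air and -0.63 and -0.90 in particle-free air. In these 3 probes the order was the same, with both UCP arrays above both particle-free arrays. Hba-a1 E, at -0.37 and -0.28 in UCP air and -0.61 and -1.005 in particle-free air, kept that order too. Hba-a1 C gave -0.97 and 0.13 in UCP air and -0.95 and -0.66 in particle-free air. Hba-a1 F gave -0.97 and -0.002 in UCP air and -0.78 and -0.63 in particle-free air. C and F thus overlapped between the airs, with array 1 of UCP air as low as the particle-free arrays. They also differed from the other 4 probes in particle-free air, where C and F were lower on array 1, by -0.29 and -0.15, while A, B, D and E were higher there, by 0.27 to 0.40.

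Of the 6 Hba-a1 probes, 5 were below 0 on all 4 arrays, as were 13.6% of all probes. All 6 were at least 1.5-fold lower on both particle-free arrays, against 4.62% of all probes, and 0 on both UCP arrays, against 4.55%. With each array centred on its median, 4 of the 6 were that far below on both particle-free arrays. The 6 probes read the transcript of 1 gene (or of the Hba-a1 and Hba-a2 pair) in the same RNA, so this is 1 observation repeated on the slide and not 6. With an unadjusted p under 0.05 there were 5 Hba-a1 probes for the averaged effect, where 7.59% of all probes were that far on the low side. In particle-free air there were 4, against 5.89%, and in UCP air 0, against 4.75%. After adjustment over all 18160 probes limma called 0 of 6 in each comparison, where the background was 0.00551% for the averaged effect and 0% in either air. The adjusted p of the 6 probes ran between 0.272 and 0.375 for the averaged effect.

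The probes of Hba-a1 were close to each other compared with those of other genes. The SD between its probes, averaged over the arrays, was 0.182, while the median over the 2561 genes with at least 2 probes was 0.448, and 6.76% of these genes had a smaller one. The widest gap between Hba-a1 probes was 0.60 on array 1 of UCP air, and the narrowest was 0.34 on array 1 of particle-free air. The gap between the arrays of UCP air, seen in the gene's means above, was about as large as the widest gap between probes. On the particle-free arrays, between 7.44% and 18.2% of all probes had a lower ratio than an Hba-a1 probe. On array 1 of UCP air this share was 5.19% to 22.1%, and on array 2 of UCP air 29.0% to 59.0%.

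**Figure D1:**
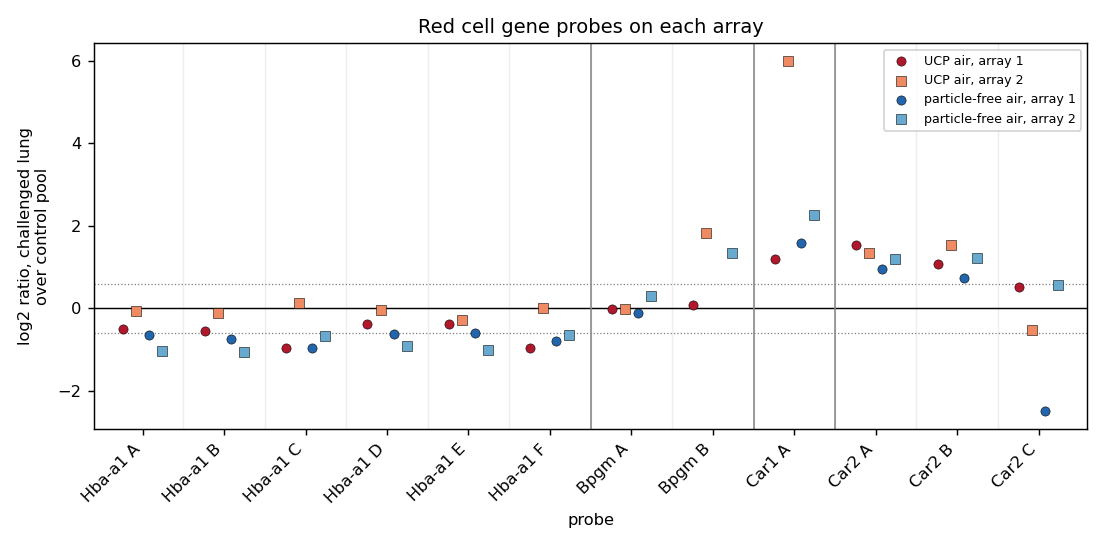
Log2 ratio of challenged lung over the control pool (vertical axis) for the 12 probes of Hba-a1, Bpgm, Car1 and Car2 (horizontal axis), one point per array, with dotted lines at 1.5-fold. The 12 Hba-a1 points of particle-free air lie between -1.06 and -0.61, Car1 and Car2 A and B lie above 0 on each array, and Car2 C spreads between -2.50 and 0.56.

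The difference between the ratios of the airs was tested. The ratio of Hba-a1 to its pool was higher in UCP air than in particle-free air by 0.46 (SE 0.32, 95% interval -0.41 to 1.33, limma unadjusted p = 0.218, adjusted p = 0.979), a difference within the spread between arrays. Each air had its own control pool, so this compares ratios and not the level of Hba-a1 between the airs. Both UCP arrays lay above both particle-free arrays for 4 of the 6 probes, where 17.7% of all probes did so. Without array 2 of UCP air, the differences of Hba-a1 C and F turned to -0.17 and -0.26, while those of A, B, D and E were 0.34, 0.34, 0.38 and 0.44. A difference of the size seen, or one of 1.33 in the same direction, is inside the interval, and so is none at all.

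Other red cell transcripts gave a mixed picture. Slc4a1, the anion exchanger that trades bicarbonate for chloride across the red cell membrane, lay at -0.59 and -0.45 in UCP air and at -1.24 and -1.03 in particle-free air. This is the order seen in 4 of the 6 Hba-a1 probes, with no overlap between the airs (difference 0.61, limma adjusted p = 0.979). Its averaged ratio was -0.83 ± 0.37 (SD, n = 4, limma unadjusted p = 0.00259, adjusted p = 0.13). Hbb-bh2, a beta-like globin gene that was picked after its values were seen, lay at 0.11 and -0.18 in UCP air and at -0.90 and -1.004 in particle-free air. Hba-x, the embryonic zeta-type globin, lay at 0.35 and 0.90 in UCP air and at -0.27 and -1.08 in particle-free air. All 3 had both particle-free arrays below both UCP arrays, as had 17.7% of all probes, and none passed a test after adjustment. The wider groups of red cell genes did not share this order. Their ratio in UCP air was above that in particle-free air for 10 of 26 measured genes, against 4682 of all 9153 genes. Slc14a1 was not among the 10, through 1 plateau value described below. Their median difference was -0.15, against 0.01 over all genes.

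Over whole groups of red cell genes no gene passed. The 4 groups of globins, membrane proteins, heme synthesis enzymes and erythroid regulators listed 53 genes beside the 4, of which 26 were measured on all arrays. Their median averaged ratio was -0.04, against -0.01 over all 9153 genes, with 10 genes above and 16 below 0. In the gene-level fit 0 of 26 were called in any comparison, where 0.0983% of all genes were called for the averaged effect, 0.0219% in UCP air, 0.0109% in particle-free air and 0% for the difference. At an unadjusted p under 0.05, 3 of the 26 were lower (against 7.56% of all genes) and 0 higher (against 8.06%) for the averaged effect. In UCP air 4 of the 26 were lower at that p, against 4.93% of all genes, and 0 higher, against 407 of all 9153 genes. In particle-free air 2 were lower and 1 higher, against 522 and 511 of all 9153 genes. Only 1 of 11 listed globins, Hba-x, was measured, so the group is known mainly through Hba-a1.

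Of 13 measured membrane genes, 7 had an averaged ratio below 0 and 6 above, with a median of -0.03. Aqp1, a water channel of red cells that capillary endothelium makes too, lay at -0.60 and -0.98 in UCP air and at -0.97 and -1.16 in particle-free air, and its averaged ratio was -0.93 ± 0.24 (SD, n = 4, limma adjusted p = 0.128). Tmod1, which caps actin filaments in red cells and in heart muscle, ran the other way between the airs, at -1.13 and -1.10 in UCP air and -0.37 and -0.13 in particle-free air. Rhd, which carries a Rhesus-type surface protein, lay above 0 on 3 of 4 arrays, at -0.24 and 1.31 in UCP air and 0.43 and 2.09 in particle-free air. The urea transporter Slc14a1 had 1 probe on the plateau of the scale, at -16.33 on array 2 of UCP air, so its mean has no meaning as an amount. Its probe A lay at -0.36 and 0.13 in UCP air and at -0.65 and -1.09 in particle-free air. Probe B lay at 0.87 and 0.17 in UCP air and at -1.28 and -0.07 in particle-free air. Both kept the UCP arrays above the particle-free arrays, and neither difference passed (limma adjusted p = 0.984 each).

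Heme synthesis genes had a median of -0.26 over 7 measured genes, 6 of them below 0. Alas2, whose upstream sequence is printed above, lay at -0.43 and 0.16 in UCP air and at -0.28 and -0.50 in particle-free air. Fech, which inserts iron into heme, averaged -0.43 ± 0.39, and Alad, an early enzyme of the pathway, 0.33 ± 0.21 (SD, n = 4 each). Erythroid regulators had a median of 0.08 over 5 measured genes. Klf1, the erythroid Krüppel-like factor, lay at -0.33 and -0.70 in UCP air and at -0.11 and 0.13 in particle-free air, and Tal1 averaged -0.31 ± 0.16 (SD, n = 4). None of these genes passed.

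**Figure D2:**
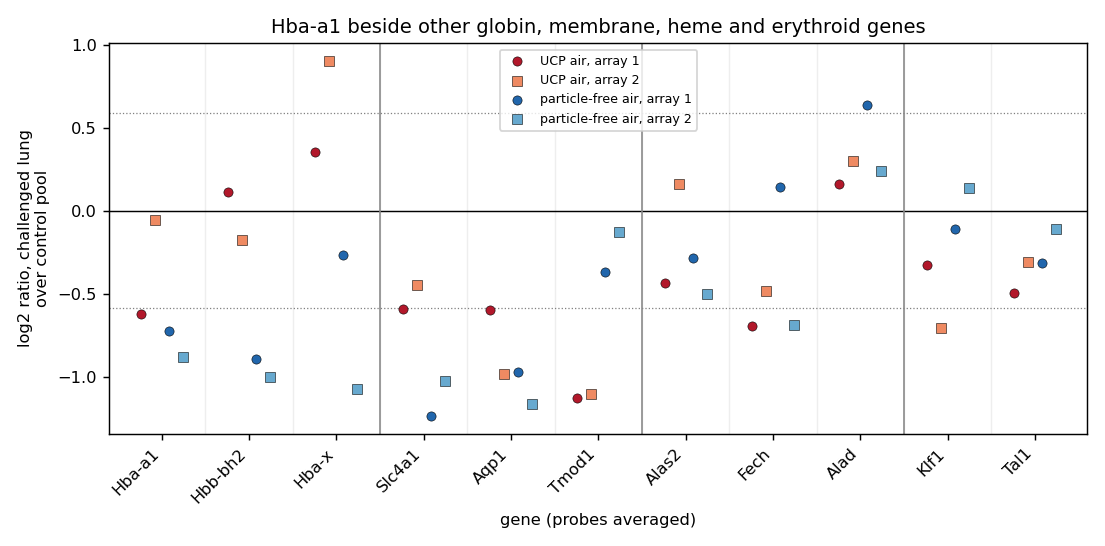
Log2 ratio of challenged lung over the control pool (vertical axis) for Hba-a1 and other globin, membrane, heme synthesis and erythroid regulator genes (horizontal axis, probes of a gene averaged), one point per array, with dotted lines at 1.5-fold. For Hba-a1, Hbb-bh2, Hba-x and Slc4a1 the particle-free arrays lie below the UCP arrays, while for Tmod1 and Klf1 they lie above.

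Other cells of blood and vessels were set beside Hba-a1. Endothelial genes (6 measured of 11 listed) had medians of -0.07 and -0.41 on the UCP arrays and 0.24 and 0.02 on the particle-free arrays. Platelet genes (4 of 11) had medians of 0.14 and 0.95 on the UCP arrays and 0.68 and -0.18 on the particle-free arrays, with the platelet chemokine Pf4 at 2.02 and 0.97 in UCP air and 0.94 and 0.99 in particle-free air. The platelet median, like Hba-a1, was highest on array 2 of UCP air and lowest on array 2 of particle-free air. By gene, Itga2b alone had this order. Pf4 was highest on array 1 of UCP air, Gp9 was highest on array 1 of particle-free air (1.14), and Treml1 was lowest on array 2 of UCP air (-0.98). By their means, 3 of the 4 had higher ratios in UCP air (median difference 0.23). The endothelial median was lowest on array 2 of UCP air, where Hba-a1 was highest. Heart muscle genes (10 of 13) had medians of -2.28 and -2.08 on the UCP arrays and 0.16 and -0.11 on the particle-free arrays. This order was opposite to that of Hba-a1. For the difference between the airs limma called 0 of 10, where 0% of all genes were called. At an unadjusted p under 0.05 by limma, 9 of the 10 had lower ratios in UCP air, against 197 of all 9153 genes. Lung epithelial genes (8 of 12) had medians of -0.25 and -0.15 on the UCP arrays and 0.00 and -0.33 on the particle-free arrays. What part these tissues had in the Hba-a1 ratios was not tested.

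Bpgm showed no clear difference from the control pool on its complete probe. Bpgm A lay at -0.01 on either UCP array and at -0.11 and 0.30 on the particle-free arrays. Its mean was 0.04 ± 0.18 (SD, n = 4, limma adjusted p = 0.925), with a 95% interval of -0.38 to 0.47. Bpgm B gave 0.09 and 1.82 in UCP air and 1.33 on array 2 of particle-free air. Both high values of probe B came from the arrays with challenged lung in Cy3, where probe A lay at -0.01 and 0.30. The probes of Bpgm thus disagreed on those arrays by over 1 on the log2 scale, and the sole value of B from a Cy5 array was near 0.

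Bpgm branches off glycolysis, and the genes of that pathway were listed beside it. Of 11 measured genes 5 had an averaged ratio above 0 and 6 below, with a median of -0.01, and 0 passed. Aldoa, the aldolase of muscle and red cells, lay at -1.38 and -1.17 in UCP air and at -0.48 and -0.55 in particle-free air. Pfkm, the muscle phosphofructokinase, lay at -1.82 and -0.98 in UCP air and at -0.38 and -0.57 in particle-free air. Both had lower ratios in UCP air, as heart muscle genes had, but neither difference passed (limma adjusted p = 0.979 each), and the part of that tissue was not tested. Pfkl, the liver-type enzyme, averaged 0.45 ± 0.58 (SD, n = 4).

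Car1, and probes A and B of Car2, lay above the control pool on each array, while probe C of Car2 did not. Car1 gave 1.19 and 6.00 in UCP air and 1.58 and 2.26 in particle-free air. All 4 arrays were above 0, and array 2 of UCP air stood far from the other 3. The mean of 2.76 ± 2.20 (SD, n = 4) corresponds to 6.76-fold (limma unadjusted p = 0.0268, adjusted p = 0.292). Without array 2 of UCP air the averaged ratio was 1.56, so 1 array set much of its size. In UCP air the mean was 3.59 ± 3.40 and in particle-free air 1.92 ± 0.49 (SD, n = 2 each), and the difference of 1.68 had a 95% interval of -2.84 to 6.19 (limma adjusted p = 0.984). Without that array the difference turned to -0.73. Values of at least 5 off the plateau were found for 39 probes on array 2 of UCP air, 6 on array 1 of UCP air, and 21 and 22 on the particle-free arrays. Nfe2, an erythroid transcription factor, had such a value on the same array, with 0.03 and 5.92 in UCP air and 0.01 and 0.82 in particle-free air. The other measured erythroid regulators were not high on that array, with Klf1 at -0.705, Tal1 at -0.31, Ldb1 at -0.11 and Zfpm1 at 0.05. Car1 has 1 probe, so its ratio has no second reading.

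Probes A and B of Car2 gave similar ratios on the 4 arrays. Car2 A lay at 1.54 and 1.35 in UCP air and at 0.95 and 1.21 in particle-free air. Car2 B lay at 1.07 and 1.53 in UCP air and at 0.73 and 1.23 in particle-free air. All 8 values were above 0 and at least 1.5-fold higher than the pool. Car2 A averaged 1.26 ± 0.25, a 2.39-fold ratio, and Car2 B 1.14 ± 0.33, a 2.20-fold ratio (SD, n = 4 each). Their 95% intervals were 0.85 to 1.67 and 0.65 to 1.63, with unadjusted p of 0.000809 and 0.0025 by limma. Neither passed after adjustment (limma adjusted p = 0.112 and 0.153).

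Probe C of Car2 went its own way, at 0.53 and -0.53 in UCP air and at -2.50 and 0.56 in particle-free air. It lay above 0 on 2 arrays and below on 2, and its mean of -0.48 ± 1.43 (SD, n = 4, limma adjusted p = 0.73) had a 95% interval of -2.02 to 1.05. On array 1 of particle-free air it was 3.44 below the highest Car2 probe, and 0.813% of all probes were lower there. On array 2 of the same air it was 0.66 below. Probes A and B differed by 0.02 to 0.46 on the 4 arrays, and the SD between them averaged 0.155. With C the SD between Car2 probes was 0.987, larger than in 92.0% of genes with several probes. With all 3 probes averaged, Car2 lay at 1.05 and 0.78 in UCP air and at -0.27 and 0.998 in particle-free air (mean 0.64, limma adjusted p = 0.338), below the averaged ratios of both A and B.

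For neither Car2 A nor B did the ratios of the airs differ beyond the spread between arrays. The difference of UCP minus particle-free air was 0.37 for A (95% interval -0.45 to 1.18) and 0.32 for B (95% interval -0.66 to 1.30), each with a limma adjusted p of 0.984. Both UCP arrays lay above both particle-free arrays for A and not for B.

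Of the 11 red cell gene probes with 4 values, 3 were at least 1.5-fold higher on all 4 arrays, the probe of Car1 and probes A and B of Car2, against 1.13% of all probes. The same 3 were the ones above 0 on all 4 arrays, as were 12.7% of all probes. They were also the 3 at least 1.5-fold higher on both UCP arrays, against 3.23%, and on both particle-free arrays, against 3.68%. At an unadjusted p under 0.05 these 3 were higher for the averaged effect, against 6.45%, and in UCP air, against 3.70%. In particle-free air, Car2 A and B were, against 4.55%, and for the difference between the airs 0 of 11 probes were, against 3.98% in either direction. At least 1.5-fold lower on all 4 arrays there were 0, against 1.20%. At 2-fold, Car1 remained as the 1 probe higher on all arrays.

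**Figure D3:**
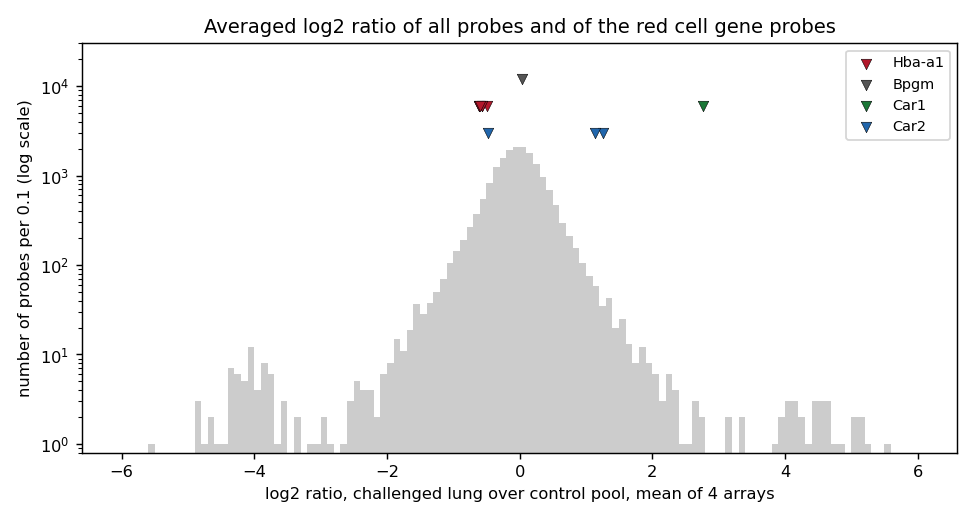
Number of probes (vertical axis, log scale) by log2 ratio averaged over the 4 arrays (horizontal axis, in steps of 0.1) for all 18160 probes, with triangles for the probes of Hba-a1, Bpgm, Car1 and Car2 placed at their means. Hba-a1 sits between -0.61 and -0.49, Bpgm A at 0.04, Car2 A and B at 1.26 and 1.14, and Car1 at 2.76. The height of a triangle carries no value.

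Car1, Car2 and Car3 are neighbours on chromosome 3, with Car3 between the others. Car3, a carbonic anhydrase of fat and muscle, lay opposite to them, at -2.48 and -2.43 in UCP air and -1.56 and -1.65 in particle-free air over its 3 probes. It fell by 2.03 on the log2 scale in the gene-level fit (± 0.49, SD, n = 4, limma adjusted p = 0.05, just under the threshold), and by probe its adjusted p was 0.0796. Fat genes (8 measured of 13 listed) were low too, with medians of -1.15 and -1.33 on the UCP arrays and -0.67 and -0.91 on the particle-free arrays, and their part in Car3 was not tested. The other measured members of the family stayed closer to 0. Car11, a member without enzyme activity, averaged -0.46 ± 0.25, Car15 -0.22 ± 0.08 and Car12 -0.15 ± 0.48, while Car13 lay at 0.01 and -0.45 in UCP air and at 0.28 and 0.14 in particle-free air (SD, n = 4 each). Among the 5 family members measured besides Car1 and Car2, 0 were called higher and 1 lower for the averaged effect, where 0.0983% of all genes were called, 3 of them lower.

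**Figure D4:**
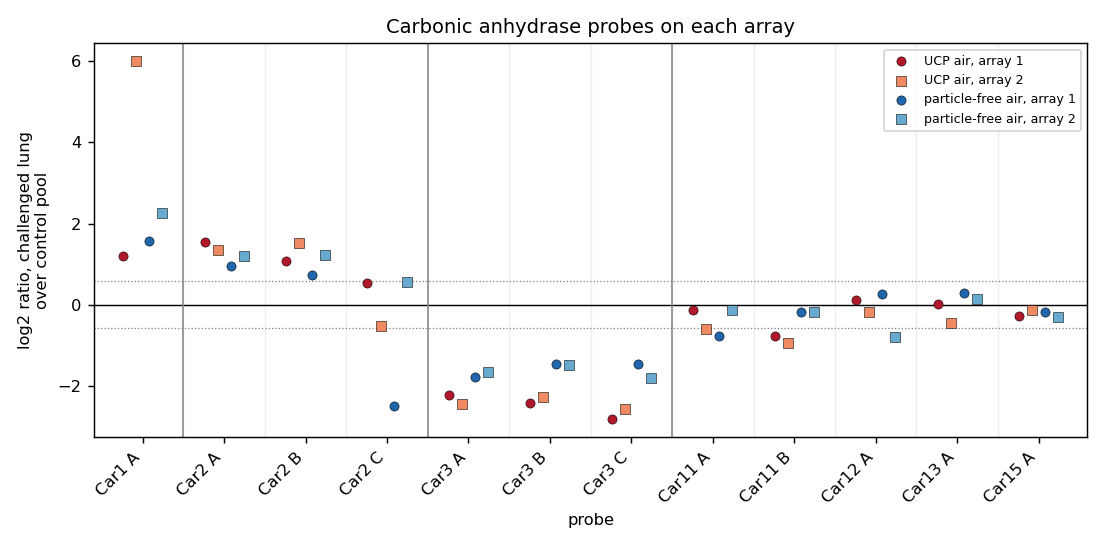
Log2 ratio of challenged lung over the control pool (vertical axis) for each carbonic anhydrase probe with a value on all arrays (horizontal axis), one point per array, with dotted lines at 1.5-fold. Car1 and Car2 A and B lie above 0, the 3 Car3 probes between -2.82 and -1.45, and the probes of Car2 C, Car12 and Car13 have arrays on both sides of 0.

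Macrophage genes were set beside Car2, as a cell type that gains in number in challenged lung. Of 8 measured genes of 13 listed, 7 lay above 0 on 4 of 4 arrays, as did 1301 of all 9153 genes. Among the 7 was Chil3, on which the overall sign partly rests, so its direction is not separate evidence. The medians of the list were 1.84 and 1.70 on the UCP arrays and 1.80 and 1.75 on the particle-free arrays. The proteases Ctsk and Ctss averaged 2.61 ± 0.49 and 2.27 ± 0.36, and the lectin Lgals3 1.82 ± 0.28 (SD, n = 4 each). Car2 A and B, with SDs of 0.25 and 0.33, lay above 0 on the same arrays, and the part of macrophages in the Car2 ratio was not tested.

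The probes of other genes with the most similar 4 ratios, by Euclidean distance, were looked up for each complete probe. Closest to Car2 A were Clec4b1 (distance 0.217), Cish and Vmp1, and closest to Car2 B were St3gal1 (0.217), Nrros and Npc2. Car1 had no close partner, the nearest probe being Rps13 at a distance of 1.95, followed by Nfe2 and Cracdl, which share its high value on array 2 of UCP air. Prox1 was among the 3 closest to Hba-a1 A, B and D, at distances of 0.108, 0.125 and 0.169. Rbms2 was among those of C and F, and the closest to E was Gamt. Bpgm A was closest to Glg1 (0.0583), with ratios near 0 like those of most probes. Closest to Car2 C was Jazf1 (0.545). These distances rest on 4 values per probe over 12532 named probes and describe the pattern alone.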

How the data were processed

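On each of 4 dual-colour arrays, challenged mouse lung was set against pooled control lung. Per the labels' protocols, RNA came from individual organs, 20 µg went into indirect Cy3 or Cy5 labelling, and 6 control animals made up the pool. The authors deposited 1 log2 ratio per probe and array. Scanner, image software, normalization and direction: not given in the sources used here. On each array the most extreme values, 20 and 58 probes in UCP air and 25 and 44 in particle-free air, lay on a plateau, at log2 of a ratio capped at 100000 plus a constant per array. It lay above 0 on the arrays with challenged lung in Cy5 and below 0 on the others, as values turned for the dye would. They were used as deposited, without a filter on dim probes, since no brightness was used.

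Probes were named through GEO's platform annotation, updated by Entrez identifier (13849 of 13852 named probes found; 6353 had no symbol). Models were fitted with limma 3.58.1 in R 4.3.3 on the 18160 probes with 4 values, with 1 coefficient per air, 2 residual degrees of freedom and eBayes moderation (2.32 prior degrees of freedom). Each air against 0, their average and UCP minus particle-free air were tested two-sided, with Benjamini-Hochberg adjustment over all probes and a threshold of 0.05. The control pool is 1 control sample, so its own spread is left out. For lists and where stated for a gene, probes were averaged first (9153 genes). The code was tested on simulated data. The genes and lists were chosen with earlier results of these data known. Named from each list were at most the 4 genes (8 for red cell groups, all carbonic anhydrases) with the smallest p of the averaged effect, and 3 nearest probes per member; others are marked as chosen after their values were seen. Alternatives were centring, scaling, the replicate number as a block, gene-level averaging, plateau values as missing, arrays of an air averaged, a 2-fold limit and each array left out.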

Additional observations from a re-analysis of the deposited data

Results flagged for a closer look

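Results for named genes and probes were listed here where both arrays of one air lay on the other side of 0 from both arrays of the other air. The share of all genes meeting this rule was not counted, so the list is a description only. For the looser order of both UCP arrays above both particle-free arrays, the share was 17.7% of all probes. No probe of Hba-a1, Bpgm, Car1 or Car2 did so. Hba-x, the embryonic globin, lay at 0.35 and 0.90 in UCP air and at -0.27 and -1.08 in particle-free air, a difference of 1.30 (limma adjusted p = 0.979). Pgam2, a muscle phosphoglycerate mutase of the glycolysis list, lay at 0.81 and 0.22 in UCP air and at -0.48 and -8.61 in particle-free air, a difference of 5.06 (limma adjusted p = 0.979), and 1 of its 2 probes had a plateau value on array 2 of particle-free air. Eng, an endothelial receptor, lay at -0.15 and -0.44 in UCP air and at 0.79 and 0.15 in particle-free air, a difference of -0.77 (limma adjusted p = 0.979). None of these differences passed the test.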

How the results depend on the processing

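Over the 11 probes, 4 comparisons and all alternatives, 392 of 407 combinations kept direction and side of the threshold, 0 gained a call and 15 turned direction. None of these 15 had been called, and the lowest limma adjusted p among them was 0.338. Over all combinations the lowest was 0.0952, for Car2 A with plateau values missing, which kept its direction. The replicate block and the averaging of an air's arrays could not move an estimate, nor could leaving out an array of the other air for a single air. With plateau values missing, the estimates of these probes stayed as they were. Averaging probes gave all probes of a gene the same value. The combinations are thus not separate checks, and part of this count was fixed by the design. With 1 array left out, the lowest and highest values of the turned results were -0.97 and 0.13 for Hba-a1 C in UCP air, -0.17 and 0.94 for the difference of Hba-a1 C, -0.26 and 0.71 for that of F, -0.73 and 4.08 for that of Car1, and -0.56 and 2.49 for that of Car2 C. For Bpgm A they were -0.06 and 0.14 (averaged), -0.11 and 0.30 (particle-free air) and -0.31 and 0.10 (difference), and for Car2 C -1.25 and 0.28 (averaged), -0.53 and 0.53 (UCP air) and -2.50 and 0.56 (particle-free air). With probes averaged, Car2 lay at 0.64, 0.91 and 0.36 (averaged, UCP and particle-free air), where probe C alone was below 0, and with arrays scaled to the same spread Car2 C in UCP air lay at 0.05. At 2-fold the probes higher on all 4 arrays were 1, not 3, on both particle-free arrays 1, not 3, and those lower there 0, not 6 (4 with arrays centred). The probes called over the whole arrays for the averaged effect were 1, against 0 to 34 under the alternatives: 5 with plateau values missing, 9 with probes averaged, 34 and 0 without array 1 or 2 of UCP air, and 22 and 9 without array 1 or 2 of particle-free air. In UCP air they were 0, against up to 36 (without its array 1), in particle-free air 0, against up to 24 (without its array 1), and for the difference 0, against up to 32 (without array 1 of UCP air). The cause was not tested. With 1 array left out, its air has a single array, assumed to vary like the other air. Same-numbered arrays share the dye orientation, and whether they share any other step is not given in the labels. Their deviations correlated at 0.05 (Pearson) and 0.12 (Spearman) over all probes. With the replicate number as a block, 0 of 11 probes were called in any comparison, and the 1 call over all probes became 0. The block is balanced over the airs, so it changes the spread and not the ratios. Car2 A, Car1 and Hba-a1 A, at averaged ratios of 1.26, 2.76 and -0.56, had a limma adjusted p of 0.308, 0.339 and 0.4.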

Other observations

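Genes that handle heme and iron outside red cells lay mostly on the high side. Of 8 measured genes of 15 listed, 7 had an averaged ratio above 0, against 4419 of all 9153 genes. On all 4 arrays 5 of them lay above 0, against 1301 of all 9153 genes. Their median was 0.57, against -0.01 over all genes. After adjustment over all genes 0 passed, where 0.0983% of all genes were called for the averaged effect. Fth1, the heavy chain of the iron store ferritin, lay at 0.85 and 0.69 in UCP air and at 0.90 and 0.63 in particle-free air over 3 probes, and Ftl1, its light chain, at 0.32 and 0.91 in UCP air and 0.89 and 0.70 in particle-free air. Both groups of arrays overlapped for these genes (limma adjusted p of the averaged ratio 0.143 and 0.203). Hpx, the plasma protein that binds free heme, lay at 1.20 and 0.48 in UCP air and at 3.83 and 3.496 in particle-free air, the air in which the mean of each Hba-a1 probe was lower. The difference of -2.82 for Hpx did not pass (limma adjusted p = 0.509), and a link between Hpx and Hba-a1 was not tested. Cp, a copper-carrying iron oxidase of plasma, averaged 0.72 ± 0.49 (SD, n = 4).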
